A study of Drosophila melanogaster with 4 samples.

Results

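The transcript block described here lies near the distal tip of the left arm of chromosome 2 (2L) of *Drosophila melanogaster*. It was defined by row identifiers alone, as the rows of the deposited expression table whose FlyBase transcript number runs from FBtr0077835, a transcript of mio, to FBtr0078144, a transcript of kis. This took 230 of the 15634 rows. No expression value entered the rule, but the members were chosen with earlier results of these data known. The study compared Kc cells, an established line derived from embryos, with Mbn2 cells, an established line derived from larval blood cells of l(2)mbn tumour mutants. The submitters call the 2 samples of a line biological replicates, and each was hybridised in Cy3 to its own NimbleGen array. All cells were untreated. The medium was serum-free for Kc and contained fetal calf serum for Mbn2, and the effects of line and medium cannot be told apart. Each value is a log2 expression level from RMA (robust multi-array average). Nothing says that the replicates were separate cultures, so p-values measure only the spread between these samples.

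The genes at the ends of the block act in unrelated processes. Mio is a subunit of GATOR2, a complex at the lysosome that promotes TORC1 signalling when amino acids are present, and mio (missing oocyte) takes its name from its role in keeping oocyte identity. Kismet, the product of kis, is a chromatin remodeller of the CHD family that belongs to the trithorax group and is associated with active transcription. A block defined by position need not share a function. Genes next to each other on a chromosome can share chromatin state, regulatory elements or DNA copy number, none of which was measured here.

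Gene names were available for 2 members, mio and kis, and the other 228 carry only their transcript identifier. The RefSeq gene table (Release 6 plus ISO1 MT) lists 302 genes between kis and mio on 2L, 229 of them protein-coding, and 37 genes, 28 of them protein-coding, between kis and the tip. The listed interval contains smo, the Hedgehog signal transducer, ex, an upstream component of the Hippo pathway, ush, a transcriptional cofactor that acts in blood cell development, and crq, a scavenger receptor of macrophages. None of these could be matched to a row, so no value is given for them. For the same reason the blood cell identity of Mbn2 could not be checked against marker genes. In the RefSeq table the order along 2L from the tip is kis, mio, then the transcript shared by Sws1 and Rad1 (FBtr0077747), the reverse of the transcript numbers. These are the only named rows in this part of the numbering, and the order of the unnamed rows between them could not be checked. The transcript numbers were nearly unbroken, and 192 of 229 successive members differed by exactly 1.

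Taken as a whole, the block differed between the lines about as often as the rest of the table. In Mbn2 cells 49 members were higher and in Kc cells 68 were higher (limma, adjusted p under 0.05), and 113 did not pass the test. The share of members that passed, 50.9%, was near the 48.2% found over all rows. Higher levels in Mbn2 were called for 21.3% of members against 21.2% of all rows, and higher levels in Kc for 29.6% of members against 27% of all rows. At least 2-fold differences were called for 22 members towards Mbn2, or 9.57% against 10.5% of all rows, and for 31 towards Kc, or 13.5% against 10.2%. The arrays of the lines did not overlap in 173 members, or 75.2%, against 72.4% of all rows. Without moderation of the variances the counts fell to 24 towards Mbn2 and 31 towards Kc.

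Members spanned the whole range of levels. By line means, 124 members were bright in both lines (above 8) and 63 were dim in both (below 6), or 53.9% and 27.4%, against 49.2% and 29.3% of all rows. Only 1 member went from dim in Kc to bright in Mbn2, and 2 went from bright in Kc to dim in Mbn2. Over all rows such switches made up 1.67% and 1.23%. Across members, the Kc replicates correlated at r = 0.996, the Mbn2 replicates at r = 0.997 and arrays of different lines at r = 0.924 to 0.934. The replicates of a member differed by a median of 0.12 log2 units for Kc and 0.13 for Mbn2.

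**Figure D1:**
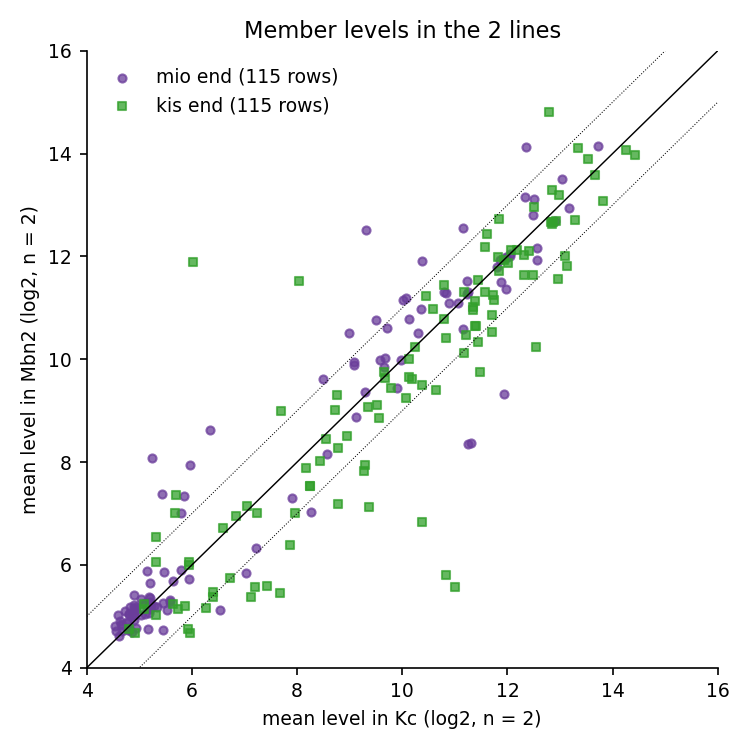
Mean log2 level of each of the 230 members in Kc (horizontal) and Mbn2 (vertical), with n = 2 arrays per line. Circles are the 115 lower-numbered rows next to mio and squares the 115 higher-numbered rows next to kis; the solid line marks equal levels and the dotted lines a 2-fold difference. The dim cluster at the lower left is made mostly of circles, and the points farthest from the line are squares.

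The level of the block as a whole showed no shift that held under other summaries. The median level of all members stood above that of all other rows by 0.74 and 0.72 log2 units on the Kc arrays and by 0.45 on both Mbn2 arrays. The line difference of this value was -0.28, with no overlap between lines, and the exact two-sided permutation test over samples gave p = 0.333, the smallest value that 2 against 2 arrays allow. With means in place of medians it was -0.11. Among the 110 members above 9 in both lines, the median level lay above that of the other 6588 such rows by 0.06 and 0.16 on the Kc arrays, and stood at 0.00 and -0.11 relative to them on the Mbn2 arrays. The line difference was -0.17 (exact permutation p = 0.333), but it was 0.02 with means and 0.02 with a limit of 10 for bright rows. Taken row by row instead, the median difference of these 110 members was -0.02, against -0.11 for the other bright rows. These summaries differ in sign relative to the rest of the table, and no direction is given to the block as a whole.

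Along the numbering, the members did not behave as 1 group. Rows next to mio tended to be higher in Mbn2 and rows next to kis tended to be higher in Kc. The members were taken in order in stretches of 50, with 30 in the last, and the median difference (Mbn2 minus Kc, log2) of the rows above 9 in both lines was computed for each. It was 0.41 in the first stretch (26 such rows), 0.05 in the second (14 rows), -0.39 in the third (20 rows), -0.16 in the fourth (28 rows) and -0.21 in the last (22 rows). Of those 26 rows in the first stretch, 22 were higher in Mbn2 by their means, and of the 20 in the third stretch 3 were. The second stretch holds few bright rows, and its median rests on 14. Over all bright rows of the table the median difference was -0.11. The medians of the fourth and last stretches lay little below it.

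**Figure D2:**
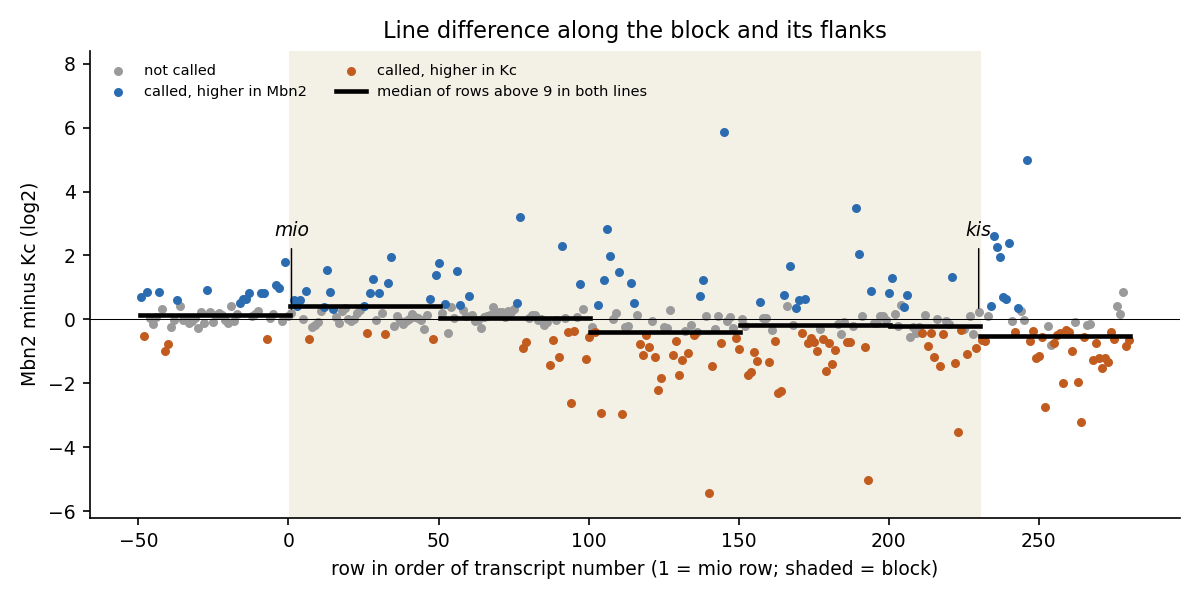
Difference between line means (Mbn2 minus Kc, log2) for each member and for 50 rows on either side, in order of transcript number. Blue and orange points passed the test (limma, adjusted p under 0.05), grey points did not, and the black bars are medians of rows above 9 in both lines in stretches of 50 rows. The bar stands at 0.41 in the first stretch of the block and at -0.39 in the third.

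In most stretches the arrays of a line stood together. After the mean of each row over the 4 arrays was subtracted, so that the values of a row sum to 0, the median of the bright rows in the first stretch was -0.20 and -0.23 on the Kc arrays, and 0.19 and 0.21 on the Mbn2 arrays. In the third stretch it was 0.21 and 0.23 on the Kc arrays, and -0.19 and -0.25 on the Mbn2 arrays. The lines did not overlap in either stretch, and they stood in opposite order. In the second stretch the Kc arrays were at -0.02 and -0.04 and the Mbn2 arrays at 0.07 and -0.02, close together. In the last 2 stretches both Kc arrays were above both Mbn2 arrays. Bright rows outside the block stood in the same order. Their medians were 0.08 and 0.04 on the Kc arrays, and -0.05 and -0.06 on the Mbn2 arrays.

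**Figure D3:**
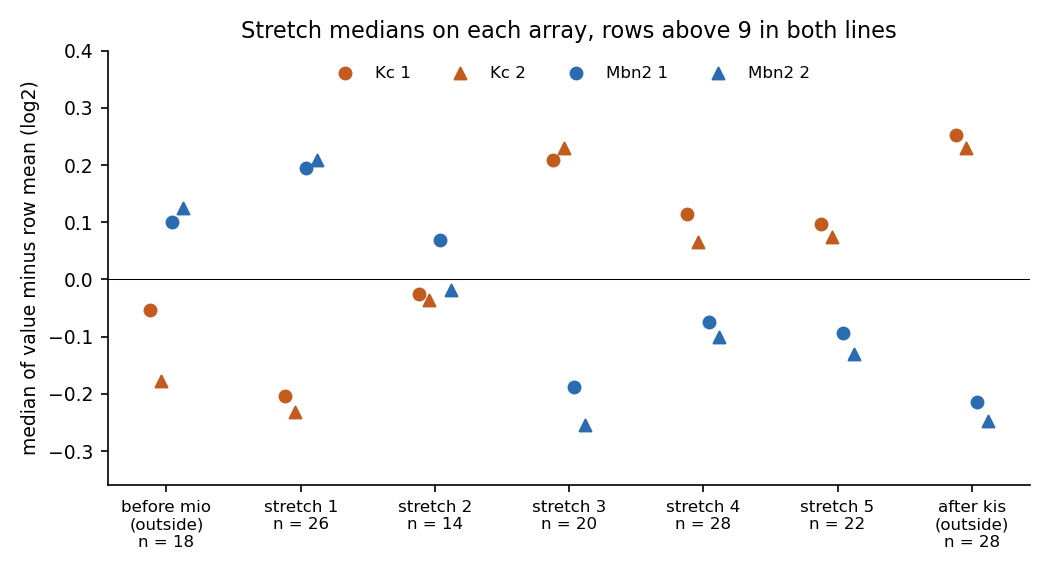
Median over rows above 9 in both lines of the value minus the row's mean over the 4 arrays (log2), for each array and each stretch of the block and for 50 rows outside either end; n is the number of such rows. The Mbn2 arrays lie above the Kc arrays in stretch 1 and below them in stretches 3 to 5.

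Counts of called rows moved in the same way. The block was divided at its middle row, a choice made after the pattern along the numbering was known, so no test is given. Of the 115 rows on the mio side, 32 were higher in Mbn2 and 17 in Kc, or 27.8% and 14.8%, against 21.2% and 27% of all rows. Of the 115 rows on the kis side, 17 were higher in Mbn2 and 51 in Kc, or 14.8% and 44.3%. At least 2-fold differences ran 15 towards Mbn2 (13.0%) and 6 towards Kc (5.22%) on the mio side. On the kis side they ran 7 (6.09%) and 25 (21.7%), against 10.5% and 10.2% of all rows. Among rows above 9 in both lines, 20 of 45 on the mio side were higher in Mbn2 (44.4%) and 7 in Kc (15.6%). On the kis side 9 of 65 such rows were higher in Mbn2 (13.8%) and 25 in Kc (38.5%). Over all rows of this brightness 59.2% passed the test, made up of 24.3% higher in Mbn2 and 34.9% higher in Kc. At this brightness the kis side's share towards Kc was thus near that of all rows, and its share towards Mbn2 was lower.

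The median difference of the bright rows was 0.21 on the mio side (quartiles 0.00 and 0.65) and -0.27 on the kis side (quartiles -0.73 and 0.07), 0.48 log2 units apart. In the row-centred values the mio side exceeded the kis side by 0.27 and 0.25 on the Mbn2 arrays, and by -0.24 and -0.25 on the Kc arrays. The median of all bright rows in the table was -0.11, and relative to it the sides stayed on opposite sides of 0. With differences centred on that median, 40 rows on the mio side were higher in Mbn2 and 14 in Kc, against 20 and 45 on the kis side. The same centring gave 25.3% of all rows higher in Mbn2 and 22.9% higher in Kc. Without Mbn2 replicate 2 the calls towards Kc on the mio side fell from 17 to 9.

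The calls towards Kc on the mio side sat near the middle of the block. In stretches of 25 rows counted from mio, 1, 3 and 0 rows were higher in Kc in the first 3 stretches, and 10 were in the fourth. The rows higher in Mbn2 in these stretches numbered 9, 8, 4 and 4. From the fifth to the ninth stretch 9 to 12 rows of each 25 were higher in Kc and 3 to 7 were higher in Mbn2. The change of balance thus fell between FBtr0077911 and FBtr0077964, in a part of the block with few bright rows.

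The sides also differed in how many rows were dim. On the mio side 53 of 115 rows (46.1%) were dim in both lines, and on the kis side 10 of 115 (8.70%) were, against 29.3% of all rows. By stretches of 50, the dim rows numbered 22, 29, 8 and 3, with 1 among the last 30. The median level on the mio side was 5.96 in Kc and 7.03 in Mbn2, and on the kis side it was 10.4 in Kc and 9.75 in Mbn2. Taken row by row, the median difference of all rows was only 0.12 on the mio side and -0.32 on the kis side. Of the 63 dim members 11 passed the test, or 17.5%, against 9.62% of all rows dim in both lines. The share of rows called was 42.6% on the mio side and 59.1% on the kis side. The part of this level difference in the number and direction of the calls was not tested.

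Of the rows just outside the block, those before mio leaned towards Mbn2, and those after kis leaned towards Kc over 50 rows. Over the nearest 25 rows after kis the measures were mixed. In the 50 rows before mio, 14 (28%) were called towards Mbn2 and 4 (8%) towards Kc, against 21.2% and 27% of all rows. The median difference there was 0.14 over 18 bright rows. The nearest 25 rows before mio held 9 calls (36%) towards Mbn2 and 1 (4%) towards Kc. Their median difference was 0.18 over all of them and 0.63 over the 9 bright ones. In the 50 rows after kis, 9 (18%) were called towards Mbn2 and 29 (58%) towards Kc. Their median difference was -0.52 over 28 bright rows. In the nearest 25 of these rows the calls were nearly even, 9 (36%) towards Mbn2 and 10 (40%) towards Kc. The median difference of these 25 rows was -0.03 over all of them and -0.38 over the 11 bright ones. As RefSeq lists 37 genes between kis and the tip of 2L, the later of those 50 rows may belong to another chromosome arm, which could not be checked.

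Shifts along the numbering were also seen elsewhere. The table was divided into 67 consecutive segments of 230 rows, in step with the block and leaving out 224 rows at the ends, and the lower-numbered and higher-numbered parts of each were compared over their bright rows. The parts lay on opposite sides of 0 in 21 of the 67 segments, the block among them. The difference between them was larger in size than the 0.48 of the block in 5 segments, ran from -0.53 to 0.68, and had a median size of 0.21. The median difference of all bright rows of a segment ran from -0.55 to 0.45, and 23 segments had a higher value than the block. The highest was the segment directly before mio, with both parts at 0.45. The segment directly after kis, which may hold rows of another chromosome arm, was at -0.47, with parts at -0.44 and -0.50. The parts of the block, at 0.21 and -0.27, lay between those of its neighbours.

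**Figure D4:**
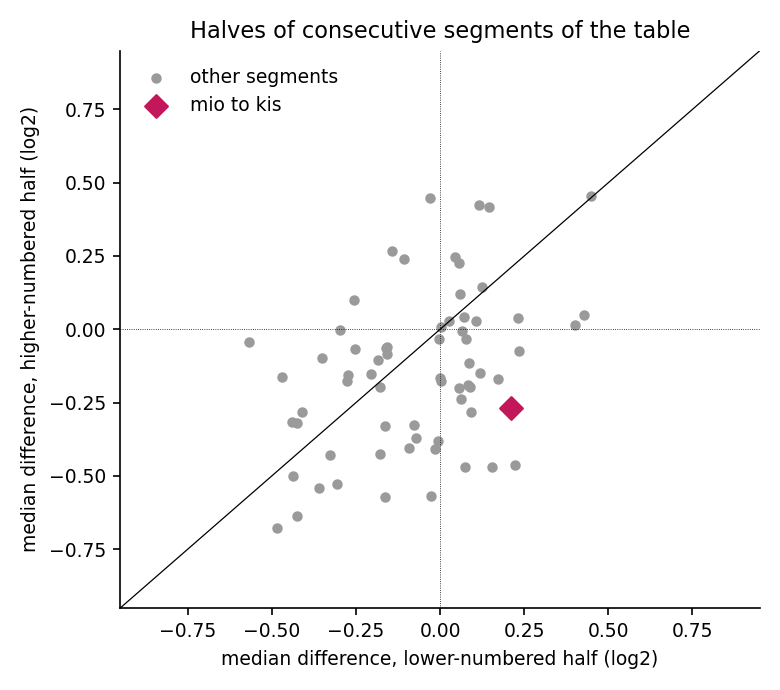
Median difference (Mbn2 minus Kc, log2, rows above 9 in both lines) of the lower-numbered part (horizontal) and the higher-numbered part (vertical) of each of 67 consecutive segments of 230 rows. The block from mio to kis (diamond) lies at 0.21 and -0.27, and the solid line marks equal values.

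The other block of 2L compared with it ran from the transcript of Fatp1 (FBtr0080133) to that of CG10570 and CG42502 (FBtr0081122), 767 rows. There 146 rows were higher in each line, or 19.0%. The median level of the bright members from mio to kis, relative to the 252 bright rows of that block, was -0.06 and 0.07 on the Kc arrays and -0.07 and -0.15 on the Mbn2 arrays. The line difference of -0.12 compared with a spread between replicates of 0.08 (pooled SD), and the exact two-sided permutation test gave p = 0.333. It ran from -0.19 without Kc replicate 1 to -0.04 without Kc replicate 2, so a difference between the blocks was not shown.

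The named genes at the ends of the block were expressed at similar levels in both lines. The mio transcript was at 9.67 and 9.65 on the Kc arrays and at 9.86 and 9.85 on the Mbn2 arrays. Its replicates lay close together and the lines did not overlap, but the difference of 0.19 (95% interval -0.05 to 0.44) did not pass the test (limma adjusted p = 0.166). The kis transcript was bright, at 13.03 and 12.93 on the Kc arrays and at 13.16 and 13.24 on the Mbn2 arrays. Its difference was 0.22 (95% interval -0.04 to 0.49, limma adjusted p = 0.147), opposite in sign to the median of the stretch in which it lies. Centred on the bright rows, the differences became 0.31 for mio and 0.33 for kis, with limma adjusted p of 0.0483 and 0.0471. Of the other GATOR2 genes only Wdr24 had a named row (FBtr0085543), which lies outside the block and was higher in Mbn2 by 2.03 log2 units (limma adjusted p = 4.74e-05). No further trithorax gene had a named row.

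The 2 members with the largest differences in each direction all lay on the kis side. The next largest towards Kc, also on that side, differed by -3.53. The largest towards Mbn2 was FBtr0078031, on the kis side, at 5.96 and 6.08 on the Kc arrays and at 11.87 and 11.91 on the Mbn2 arrays. Its Kc mean of 6.02 was just above the limit of 6 for dim rows, and its Mbn2 values were bright. The difference was 5.87 (SE 0.11, limma adjusted p = 3.07e-06). It is thus not the member counted as dim in Kc and bright in Mbn2, which was FBtr0077973. No fold is given where a line was near or below that limit, because the background level is not known. FBtr0078085 was at 8.15 and 7.91 in Kc and at 11.41 and 11.65 in Mbn2. The Mbn2 arrays were 11.3-fold higher (difference 3.50, SE 0.14, limma adjusted p = 2.08e-05). Both lie on the kis side, where most calls were towards Kc.

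Towards Kc, the largest difference was that of FBtr0078024, at 11.17 and 10.83 on the Kc arrays and at 5.92 and 5.22 on the Mbn2 arrays. It was bright in Kc and dim in Mbn2, and the Mbn2 arrays differed from each other by more than the Kc arrays did (difference -5.43, SE 0.25, limma adjusted p = 3.54e-05). FBtr0078093 was at 10.75 and 10.90 in Kc and at 5.93 and 5.66 in Mbn2 (difference -5.03, SE 0.14, limma adjusted p = 5.63e-06). It too was bright in Kc and dim in Mbn2. FBtr0078024 and FBtr0078031 lie 5 rows apart, at positions 140 and 145, and differed in opposite directions.

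**Figure D5:**
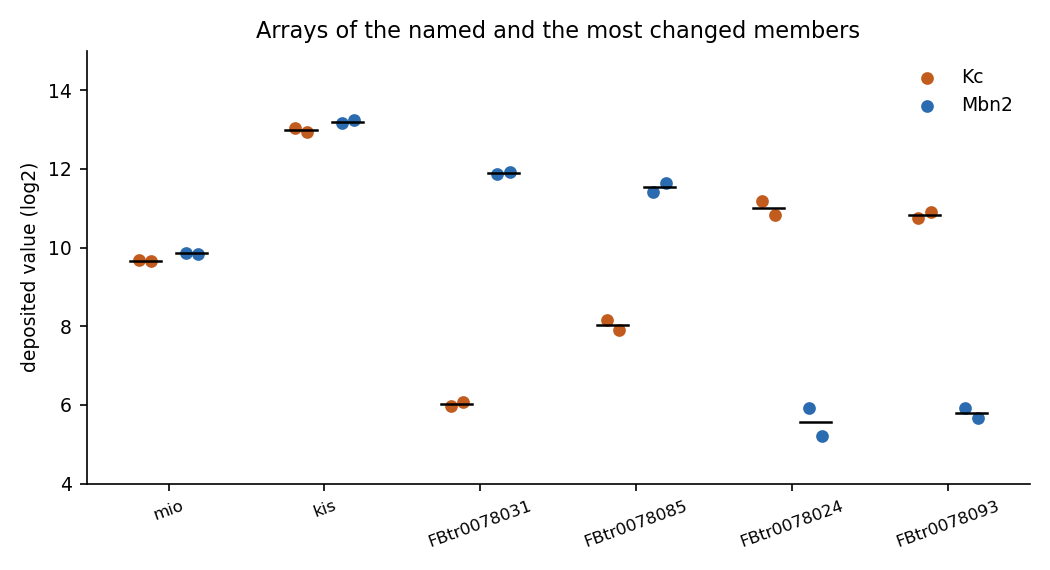
Log2 level on each array for mio, kis, the 2 members with the largest differences towards Mbn2 and the 2 with the largest towards Kc; points are arrays and black bars the means of a line. The lines nearly coincide for mio and kis and lie 3.50 to 5.87 log2 units apart for the others.

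Neighbouring rows often moved together. The following rows were chosen after their values were seen. FBtr0078087, the row next to FBtr0078085, was also higher in Mbn2, at 12.89 and 12.68 in Kc and at 14.85 and 14.78 in Mbn2, a 4.09-fold difference. Next to each other on the mio side, FBtr0077905 and FBtr0077910 were 2.62-fold and 3.42-fold higher in Mbn2. Whether such neighbours are transcripts of 1 gene could not be checked, and rows of 1 gene can share probes.

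Between FBtr0077971 and FBtr0077978, at positions 104 to 111, the outer rows were higher in Kc and most of those between them were higher in Mbn2. The outer rows had nearly the same profile: FBtr0077971 was at 11.31 and 11.20 in Kc and at 8.51 and 8.19 in Mbn2, and FBtr0077978 at 11.44 and 11.18 in Kc and at 8.26 and 8.48 in Mbn2. They were 7.50-fold and 7.68-fold higher in Kc. Of the 6 rows between them, 4 were higher in Mbn2. The largest of these was FBtr0077973, dim in Kc at 5.32 and 5.15 and at 7.96 and 8.19 in Mbn2. The other 2 were dim on all 4 arrays, between 4.87 and 5.14.

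The 4 consecutive rows FBtr0078043 to FBtr0078046 were all higher in Kc, by 1.02 to 1.74 log2 units, and dim in Mbn2, at means of 4.67 to 5.57. On the Kc arrays their levels were low and uneven. FBtr0078043 was at 7.48 on Kc replicate 1 and at 6.78 on Kc replicate 2, and FBtr0078046 at 6.25 and 5.68. In each of the 4 rows replicate 1 was the higher of the Kc arrays.

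Runs of at least 3 consecutive rows called in 1 direction numbered 13 in the block. All 3 runs towards Mbn2 lay on the mio side, and 9 of the 10 towards Kc lay on the kis side. These runs are made of the same calls as the counts by side and add no separate result. Such runs were not counted over the whole table. The longest was 5 rows towards Kc (FBtr0078072 to FBtr0078076), whereas the whole table held runs of up to 14 towards Mbn2 and 12 towards Kc. Of 18 adjacent pairs in which both rows differed by at least 2-fold, 14 moved the same way, against 82.7% of the 1153 such pairs in the table. Across the 229 adjacent pairs of the block, the differences correlated at a Spearman rho of 0.35 and a Pearson r of 0.20. Across all 15633 adjacent pairs of the table these were 0.33 and 0.31. These correlations are across rows that share the same 4 arrays and only describe them.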

How the data were processed

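The deposited table holds log2 values for 15634 rows and 4 samples, which the authors made with RMA, per the submitters' processing notes; the sources used here give no RMA version or settings, genome build or annotation release. Values ran from 3.93 to 15.9 and sample medians from 8.53 to 8.62. The number of arrays, 4, limits the precision. The test was that of limma 3.58.1 (R 4.3.3; lmFit and eBayes, two-sided), fitted to all rows without covariate or filter, so all 230 members were tested. Differences are Mbn2 minus Kc, and p-values were adjusted by Benjamini-Hochberg over all 15634 rows. The test was checked on simulated data. Bright rows exceed 9 in both line means. Names came from RefSeq synonyms that hold the full identifier, which matched 44 rows. The text names members with a symbol, the 2 largest calls per direction, and others stated as chosen after their values were seen. The members and lists were chosen with earlier results of these data known. The settings varied were moderation (none, or with an intensity trend), a replicate block, a second quantile normalization, centring, a filter on dim rows, log2(2^value + 16), other brightness limits, means, an adjusted p under 0.01 and leaving out each sample.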

Additional observations from a re-analysis of the deposited data

How the results depend on the processing

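The opposite balance of calls at the ends of the block was present in all settings run. Without moderation of the variances, calls fell to 24 towards Mbn2 and 31 towards Kc, or 18 and 4 on the mio side and 6 and 27 on the kis side, and at least 2-fold calls to 14 and 19. With rows below the median left out, which removes dim members, at least 2-fold calls were 12 towards Mbn2 and 15 towards Kc, and calls towards Kc on the mio side were 10. They were 9 with an adjusted p under 0.01 and 9 to 16 without single samples. Of the named members, 1 passed with an intensity trend (kis), 1 without moderation (mio) and 2 with centring on bright rows, against 0 otherwise.

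The distance between the mio and kis sides, 0.48, was 0.51 with log2(2^value + 16), 0.61 with means, 0.41 with a limit of 10, 0.43 over all members, 0.51 with the 50 middle rows left out, and 0.46 to 0.55 without single samples. The range of stretch medians, 0.81, was 1.25 in stretches of 25 rows, some with only 4 bright rows, and 0.78 to 0.86 without single samples. The line difference of the block's level against all other rows, -0.28, was -0.30 after a second quantile normalization and -0.11 with means. The line difference for its bright rows, -0.17, was 0.0219 with means, -0.0866 with a limit of 8 and 0.0193 with a limit of 10. The cause was not tested. Deviations of same-numbered samples correlated at r = -0.05 across rows, which does not settle whether those samples were handled as pairs. A replicate block gave 46 calls towards Mbn2 and 65 towards Kc, and called neither named member. No background signal is given, so the floor of dim rows is unknown.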
